A study of Homo sapiens with 5 samples.

Results

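A stretch of 9 Mb on the long arm of chromosome 11, at 11q12 to 11q13 (60 Mb to 69 Mb in hg19), held 239 of the 16095 merged ERG regions of VCaP cells. Its members are all ERG regions whose midpoint lies in that stretch, where a region is the union of ERG peaks of either replicate that overlap by at least 1 bp. The stretch was chosen because ERG peaks are dense there, so its counts, densities and gaps describe the choice and carry no test. The cells are of VCaP, an established line from a human prostate cancer, which has the fusion TMPRSS2-ERG together with mutant p53. Untreated cells were examined by chromatin immunoprecipitation followed by sequencing (ChIP-seq), with the antibody to ERG (Abcam, ab92513) in 2 samples and the p53 antibody DO-1 (Santa Cruz Biotechnology, sc-126) in 2 samples. The deposited lists give the position of each peak and no height, read count or p-value. No list was used for the input chromatin. All groups are of 1 cell line, and the block in these cells was not set against the same stretch in cells without ERG, nor against the input or the number of copies of this stretch. What those would change in the counts was not tested.

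ERG is a transcription factor of the ETS family, whose members bind DNA at a GGAA core, with CCGGAA as a strong form of the site in many promoters. In the prostate, the fusion places ERG under the androgen-driven promoter of TMPRSS2, so that luminal cells make a factor they otherwise lack. p53 is a tumor suppressor that binds its own response element, and many of its missense mutants have lost that binding and are found at chromatin together with other factors. From gel-shift assays, the study proposes that such mutants can also bind a site in the CTNNB1 promoter directly. It saw no interaction between ERG and the mutants it examined in vitro.

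Gene names come from short sequences and not from the positions of the peaks alone. The study's supplementary table holds 97 sequences of 25 bases in the block, chosen by the study from its own p53 sites, and 94 of them matched GRCh38 chromosome 11 once. Of the 94, 26 lay inside an ERG region of the deposited lists, 22 of these in a region of both replicates. For comparison, ERG regions covered 13.6 kb per Mb of the block, and 166 of its 239 regions were in both replicates. Among these 26, 8 overlapped an exon at least in part, 5 lay in an intron and 13 between genes by the GENCODE annotation. Of the 26, 22 were within 1000 bp of a gene start, as were 53 of all 94. These counts were not tested and depend on where the study's sequences lie. Sequences inside a deposited p53 peak numbered 2, and they are printed because they stand in an ERG and a p53 region at once. The ATL3 sequence is on the minus strand at chr11:63439026-63439050 (hg19) and chr11:63671554-63671578 (GRCh38), 190 bases before the start of ATL3 and outside any gene. The VPS51 sequence is on the plus strand at chr11:64863666-64863690 (hg19) and chr11:65096194-65096218 (GRCh38). Its center is 8 bases before the main start of VPS51, and only its end reaches into the exon that begins there.
ATL3 site: gcgctttcccgccccgcctcgccta
VPS51 site: gcctcctccccgtccccttcctttc

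Some promoters that the widest ERG regions or the p53 regions meet are printed next, as RefSeq gives them on GRCh38.p14 (250 bases before to 50 after a transcript start, on the strand of the gene), because they show how unequally the strong ETS site is spread among them. Capitals mark CCGGAA or its reverse complement TTCCGG. TRMT112 is shown at chr11:64317510-64317809, minus strand, where its downstream RefSeq start has 5 copies, 2 of them end to end. PRDX5 is shown at chr11:64318036-64318335, plus strand, and lies wholly inside an ERG and a p53 region. FKBP2 is at chr11:64240845-64241144, plus strand, OTUB1 at chr11:63986188-63986487, plus strand, and VPS51 at chr11:65095964-65096263, plus strand, with 2 copies each. DRAP1 at chr11:65919176-65919475, plus strand, and ATL3 at chr11:63671327-63671626, minus strand, have none.
TRMT112: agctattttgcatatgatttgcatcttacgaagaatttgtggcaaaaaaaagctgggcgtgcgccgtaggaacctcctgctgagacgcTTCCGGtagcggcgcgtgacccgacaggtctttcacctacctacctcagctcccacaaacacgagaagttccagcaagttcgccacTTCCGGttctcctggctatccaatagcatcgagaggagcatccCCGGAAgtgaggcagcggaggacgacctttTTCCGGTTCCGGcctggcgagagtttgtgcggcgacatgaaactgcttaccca
PRDX5: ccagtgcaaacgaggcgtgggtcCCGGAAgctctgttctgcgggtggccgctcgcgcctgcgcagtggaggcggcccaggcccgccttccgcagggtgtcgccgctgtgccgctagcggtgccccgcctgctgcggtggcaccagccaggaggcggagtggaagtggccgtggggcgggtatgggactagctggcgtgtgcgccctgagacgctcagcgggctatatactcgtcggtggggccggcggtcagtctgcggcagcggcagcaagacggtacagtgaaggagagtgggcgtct
FKBP2: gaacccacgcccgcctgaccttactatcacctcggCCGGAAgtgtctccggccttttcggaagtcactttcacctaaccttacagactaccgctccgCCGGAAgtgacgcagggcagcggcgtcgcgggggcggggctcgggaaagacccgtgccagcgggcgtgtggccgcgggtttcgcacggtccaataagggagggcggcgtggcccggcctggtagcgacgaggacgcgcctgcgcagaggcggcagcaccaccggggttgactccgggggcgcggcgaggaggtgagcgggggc
OTUB1: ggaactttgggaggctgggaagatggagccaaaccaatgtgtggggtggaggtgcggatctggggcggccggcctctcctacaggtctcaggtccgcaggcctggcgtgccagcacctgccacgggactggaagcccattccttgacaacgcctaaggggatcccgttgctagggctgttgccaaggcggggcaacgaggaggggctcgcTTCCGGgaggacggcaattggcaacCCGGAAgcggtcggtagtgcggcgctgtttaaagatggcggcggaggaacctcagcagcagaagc
VPS51: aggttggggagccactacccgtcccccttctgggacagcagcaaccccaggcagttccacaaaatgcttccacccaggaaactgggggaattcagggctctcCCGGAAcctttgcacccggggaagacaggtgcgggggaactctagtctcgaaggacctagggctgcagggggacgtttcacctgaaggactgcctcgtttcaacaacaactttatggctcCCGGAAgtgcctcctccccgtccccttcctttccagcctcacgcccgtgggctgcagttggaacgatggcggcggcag
DRAP1: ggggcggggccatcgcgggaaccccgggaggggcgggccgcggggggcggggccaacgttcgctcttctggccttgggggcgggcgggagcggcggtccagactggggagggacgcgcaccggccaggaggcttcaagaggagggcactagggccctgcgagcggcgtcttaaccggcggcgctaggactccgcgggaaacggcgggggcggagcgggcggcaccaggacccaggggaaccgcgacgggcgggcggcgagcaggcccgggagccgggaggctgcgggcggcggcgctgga
ATL3: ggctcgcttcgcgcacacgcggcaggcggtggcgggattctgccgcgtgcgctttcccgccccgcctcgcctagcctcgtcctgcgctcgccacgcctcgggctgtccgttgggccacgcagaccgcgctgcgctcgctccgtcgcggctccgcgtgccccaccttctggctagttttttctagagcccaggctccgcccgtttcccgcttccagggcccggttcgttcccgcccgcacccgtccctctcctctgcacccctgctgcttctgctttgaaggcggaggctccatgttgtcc
These 7 windows are examples picked after their values were seen, and windows with the motif are favoured among them. In all, the placed ones of the 5 widest shared ERG regions and of the regions that met p53 touched 19 RefSeq windows of 12 genes. Of these, 9 windows of 6 genes held CCGGAA. Of the 5 widest, chr11:63605386-63606967 was not placed and so was not set beside any window. Among those not printed, the windows of ESRRA, PLAAT3, C11orf68 and GPR137 held none, and the other 4 windows of FKBP2 had 1 copy in 1 of them. Over all RefSeq promoters that a placed ERG region of the block meets, CCGGAA on either strand occurred in 30 of 70 windows, or 42.9% (95% Wilson interval 31.9% to 54.5%), against 6057 of 35116 windows, or 17.2%, in the whole table. Counted by gene, 27 of 54 genes had it in a window met by ERG, against 5487 of 27305 genes (20.1%). The bare core GGAA does not separate them, with 97.1% of the met windows and 95.5% of all windows holding it. Median GC content was 70.7% in the met windows and 58.7% in all, and its part in the motif share was not tested. The regions were placed by sequences chosen for likeness to a C-rich site. The met windows are therefore not a sample of all promoters that ERG regions meet. Windows of one gene overlap, and a match of letters is not a bound site.

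The 239 ERG regions split into 166 that held peaks of both replicates, 50 with replicate 1 peaks only and 23 with replicate 2 peaks only. The share in both replicates was 69.5% (63.3% to 74.9%), against 58.5% on the rest of chromosome 11 (431 of 737, 54.9% to 62.0%) and 58.2% over all chromosomes. These intervals cover counting error only, and neighbouring regions are not independent. The count in the block came to 217 peaks of the 14337 in ERG replicate 1 and 196 of the 11237 in ERG replicate 2, which is 1.51% and 1.74% of each list. The block held 24.5% of the ERG regions of chromosome 11 in 6.69% of its span. It had 26.6 regions per Mb against 5.87 per Mb on the rest of the chromosome, and ERG regions covered 13.6 kb per Mb against 2.33 kb per Mb. At the edges of the rule, the nearest region below the block was chr11:59865987-59866266, a peak of 280 bp in replicate 1 alone, and the first inside was chr11:60609370-60609665, of 296 bp, also in replicate 1 alone. The last inside was chr11:68873711-68874086, with peaks of 363 bp and 256 bp, and the next one above was chr11:69064462-69065329, with peaks of 645 bp and 806 bp, both in the 2 replicates.

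The block was not evenly dense. By 1 Mb window, counted from its start, the numbers of ERG regions were 3, 17, 19, 33, 41, 52, 20, 36 and 18. The first window was below the median of the 107 other chromosome 11 windows that hold a region, which was 7, and counts rose from the second megabase to the sixth. The fourth, the fifth and the sixth megabase held 126 regions, or 52.7% of the members. The windows with 52, 41, 36 and 33 regions ranked 1, 3, 4 and 6 among the 2472 windows of the genome with a region, and they alone exceeded the highest other window of chromosome 11, which had 27.

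**Figure D1:**
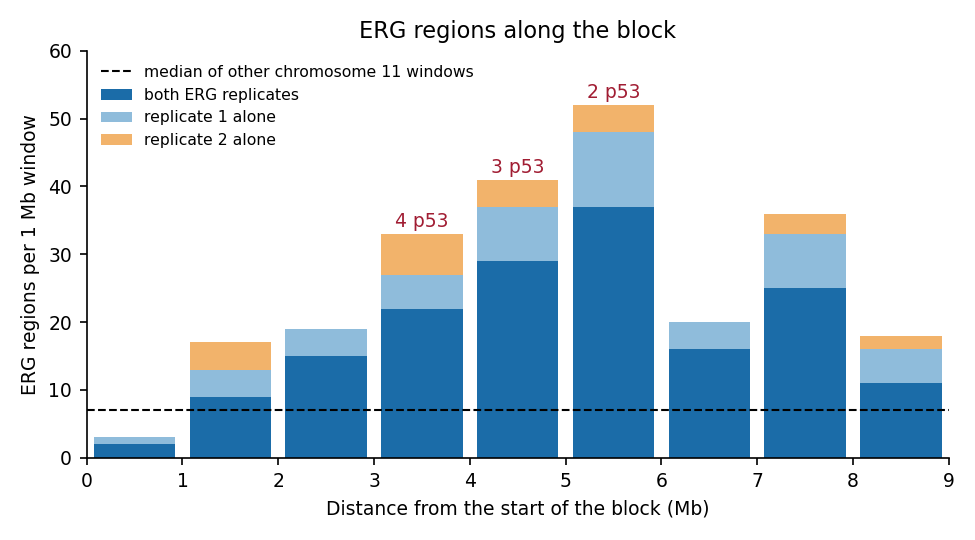
Merged ERG regions in each 1 Mb window of the block, stacked by the replicates that hold them, against distance from the start of the block (Mb). Numbers above the bars count p53 regions, and the dashed line is the median of 7 regions over the other chromosome 11 windows that hold a region. The counts rise from 3 to 52 at the sixth window, and the 9 p53 regions stand in the fourth to sixth windows.

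The share of regions in both replicates did not follow the counts. It was 80.0% in the window of 20 regions starting at 66000001 and 78.9% in the window of 19 regions starting at 62000001, where no region was in replicate 2 alone. In the 4 densest windows it lay between 66.7% and 71.2%. The lowest value, 52.9%, was in the window starting at 61000001, with 9 of 17 regions in both replicates.

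At a finer grain, 70 of the 90 windows of 100 kb in the block held an ERG region and 20 held none. The window chr11:64000001-64100000 had 13 regions, the highest count of the 9950 such windows of the genome with a region, and 11 of the 13 were in both replicates. Of the 21 windows of the genome with 8 or more regions, 5 were in the block. Empty stretches lay between the dense ones. The longest between members, of 598 kb, ran from chr11:62677135 to chr11:63274986. The next were 254 kb, 246 kb and 220 kb long, all in the lower part of the block. The empty stretch from the start of the block to the first member, at chr11:60609370, is not counted among these and is longer still.

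ERG regions of the block lay close to each other, as their density entails. The median gap to the nearest other ERG region was 7.91 kb (quartiles 1.49 kb and 18.6 kb), against 30.6 kb (9.79 kb and 77.8 kb) on the rest of the chromosome. Another region lay within 10 kb for 140 members, or 58.6% (52.2% to 64.6%), against 25.6% (22.6% to 28.9%). Chained at that distance, 60 members formed 16 runs of 3 or more, 40 pairs were made, and 99 members stood alone. The longest run by number had 7 regions in 27.1 kb (chr11:63993165-64020218), and all 7 were in both replicates. The second had 6 regions in 31.6 kb (chr11:65244673-65276287), of which 3 were in both. The median gap was 8.37 kb for regions of both replicates and 7.32 kb for those of a single one.

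Peaks of the block were wider than those elsewhere on the chromosome in each list. In replicate 1 the median width was 432 bp in the block (quartiles 293 bp and 637 bp, 217 peaks) and 346 bp on the rest of chromosome 11 (268 bp and 464 bp, 647 peaks). In replicate 2 it was 365 bp (257 bp and 570 bp, 196 peaks) and 302 bp (241 bp and 407 bp, 525 peaks). The difference lay in the peaks of regions found in both replicates, where the median was 486 bp (block) and 389 bp (rest) for replicate 1, and 386 bp and 327 bp for replicate 2. Peaks found in a single replicate had block medians of 287 bp and 219 bp, where the rest of the chromosome had 277 bp and 238 bp. No test was run, since peaks are not replicates, and the statement rests on the same order in both lists for the shared peaks.

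**Figure D2:**
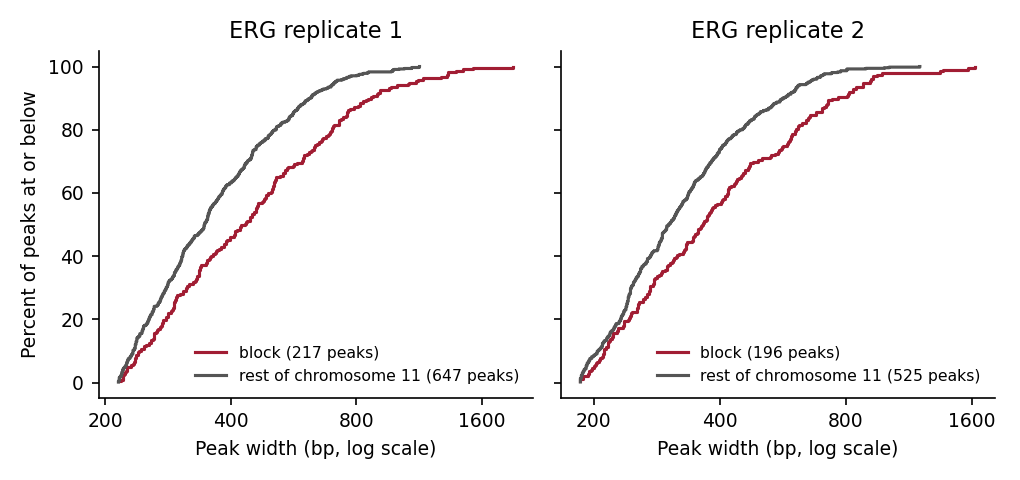
Cumulative percent of peaks against peak width (bp, log scale) for each ERG replicate, in the block and on the rest of chromosome 11. In both lists the curve of the block lies to the right of the other over most of its course. The medians are 432 bp and 346 bp for replicate 1, and 365 bp and 302 bp for replicate 2.

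Wide peaks recurred more often in the block and outside it, and the higher recurrence of the block was smaller once width was held. Among all peaks of replicate 1, 77.0% of those in the block and 66.8% of the rest of the chromosome lay in a region of both replicates. Within the narrow part of that list, below its median width, the shares were 59.0% (49 of 83, 48.3% to 69.0%) and 50.2%, and in the wide part they were 88.1% (118 of 134) and 84.4%. For replicate 2 the shares over all peaks were 88.3% and 82.7%. In its narrow part they were 71.6% (53 of 74) and 71.1%, and in its wide part 98.4% (120 of 122) and 94.6%. The block value was the higher one in each of these pairs, but over all chromosomes outside the block the narrow part of replicate 2 had 74.0% (4073 of 5507), above the block. Differences within a width class were not tested.

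**Figure D3:**
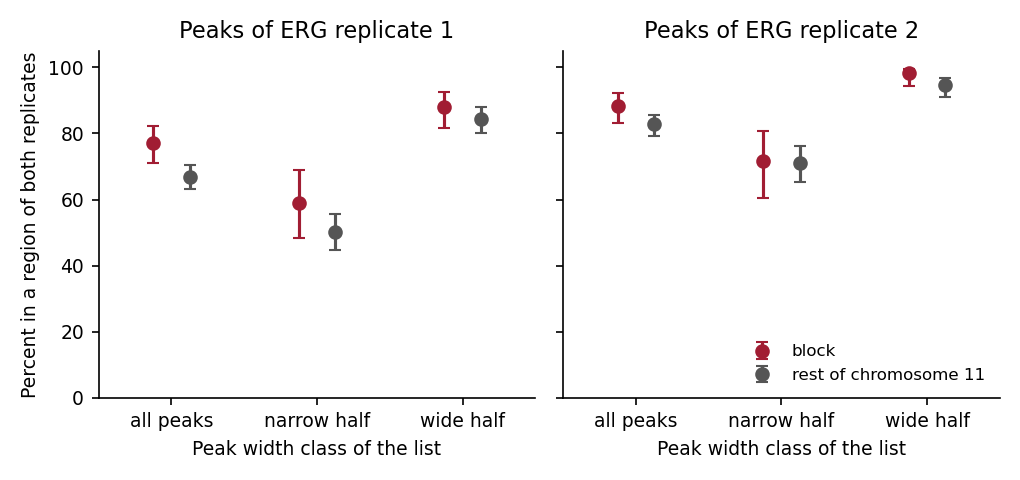
Percent of peaks that lie in a region of both ERG replicates, for all peaks and for the narrow and wide parts of each list, split at its median width, with 95% Wilson intervals. Points of the block lie above those of the rest of chromosome 11 in all 6 pairs, with overlapping intervals in the narrow and wide parts.

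The widest regions of the block lay close together. The widest by the narrower of its replicate peaks, chr11:64084444-64086013, covers the starts of TRMT112, a small protein that activates several methyltransferases, and PRDX5, a peroxidase that removes hydrogen peroxide. Its peaks were 1441 bp and 1570 bp long, which ranks 3 among the 9366 ERG regions of both replicates. The region chr11:64007975-64009394, at the start of FKBP2, a prolyl isomerase of the endoplasmic reticulum, had peaks of 1386 bp and 1367 bp and ranks 7. The region chr11:63605386-63606967 had peaks of 1529 bp and 1347 bp, ranks 8, and is named by position alone. Next came chr11:63381011-63382153, at the start of PLAAT3, with 1126 bp and 977 bp, and chr11:64072836-64073819, at the start of ESRRA, with 967 bp and 953 bp. All of these lie within the fourth and the fifth megabase of the block.

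The widest shared region of each other window was narrower. It was chr11:60928637-60929314 (678 bp and 591 bp) in the first, chr11:61197021-61197854 (600 bp and 816 bp) in the second and chr11:62389229-62389885 (657 bp and 585 bp) in the third. In the densest window it was chr11:65769381-65770446, with 1066 bp and 931 bp, which ranks 81 of the genome. The windows after it were led by chr11:66610343-66611173 (698 bp and 831 bp), chr11:67055720-67056792 (1073 bp and 930 bp) and chr11:68039149-68039959 (790 bp and 743 bp). The window with the most ERG regions was therefore not the one with the widest. Of the 100 widest shared regions of the genome, 7 were in the block, and of the 500 widest, 29 (5.80%), where the block holds 166 of the 9366 (1.77%). Over these 166, the peak of replicate 1 was the wider one in 119, and the ratio of the widths had a median of 1.13 (lowest 0.465, highest 3.47), so single widths vary several-fold between replicates at some regions.

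The interval of FKBP2, ESRRA, TRMT112 and PRDX5 (90 kb from chr11:64000001) held 12 ERG regions, 10 shared by the replicates and 2 of replicate 1 only, and they covered 10.2% of it. It opens with narrow regions around the wide one at FKBP2. The peak at chr11:64004982-64005298 was 317 bp long in replicate 1 and 331 bp in replicate 2. After FKBP2, replicate 1 had peaks of 308 bp (chr11:64012833-64013140), 366 bp (chr11:64014744-64015109) and 289 bp (chr11:64019917-64020205), matched by 279 bp, 343 bp and 273 bp in replicate 2. These 5 regions and the pair below the interval make up the run of 7.

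The middle of that interval had the longest single ERG peak of the block. At chr11:64036078-64037983 replicate 1 listed 1 peak of 1906 bp, and replicate 2 listed 2 peaks inside it, of 726 bp and 834 bp. The region meets a RefSeq promoter of an alternative start of GPR137, a membrane protein of the lysosome, while its nearest main start, that of BAD, was 14154 bp away. A region of 695 bp and 704 bp followed at chr11:64038383-64039077 in replicate 1. Further on, chr11:64052099-64052476 (378 bp), which covers the BAD start, was in replicate 1 alone. The region chr11:64052705-64053337, which covers the main GPR137 start and met no p53 region, had peaks of 633 bp and 437 bp. Near ESRRA, which encodes an orphan nuclear receptor of energy metabolism, replicate 1 had a peak of 247 bp on its own (chr11:64072009-64072255) before the shared region at the ESRRA start.

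The interval of NEAT1 and MALAT1 (90 kb from chr11:65190001) had fewer and narrower ERG regions, 9 of them, of which the replicates shared 4, with 4 more of replicate 1 only and 1 of replicate 2 only. They covered 3.94% of it. Just below the interval, chr11:65186079-65186868 (745 bp and 717 bp) and chr11:65187469-65187800 (332 bp and 262 bp) were also shared. They are in 1 run of 5 regions with the one at the NEAT1 start, and the limits of the interval leave them out. NEAT1 is a long noncoding RNA that builds paraspeckles, and MALAT1 is one of nuclear speckles. The region at the NEAT1 start, chr11:65189575-65190687, was the widest of the interval, with 1113 bp in replicate 1 and 768 bp in replicate 2. It was followed by 2 peaks of replicate 1 alone, of 370 bp (chr11:65195900-65196269) and 226 bp (chr11:65197539-65197764). No ERG region was listed in the stretch between chr11:65197764 and chr11:65244673.

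The far end of that interval was mixed between replicates. Shared regions lay at chr11:65244673-65245270 (592 bp and 528 bp), chr11:65264899-65265287 (389 bp and 320 bp) and chr11:65266245-65266665 (359 bp and 421 bp). Replicate 1 alone had chr11:65255013-65255304 (292 bp) and chr11:65275937-65276287 (351 bp), and replicate 2 alone had chr11:65259194-65259405 (212 bp). The interval was named for MALAT1 in choosing it, but no matched sequence lay within 5 kb of the MALAT1 start, the nearest being 20544 bp away, so no peak is assigned to it.

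**Figure D4:**
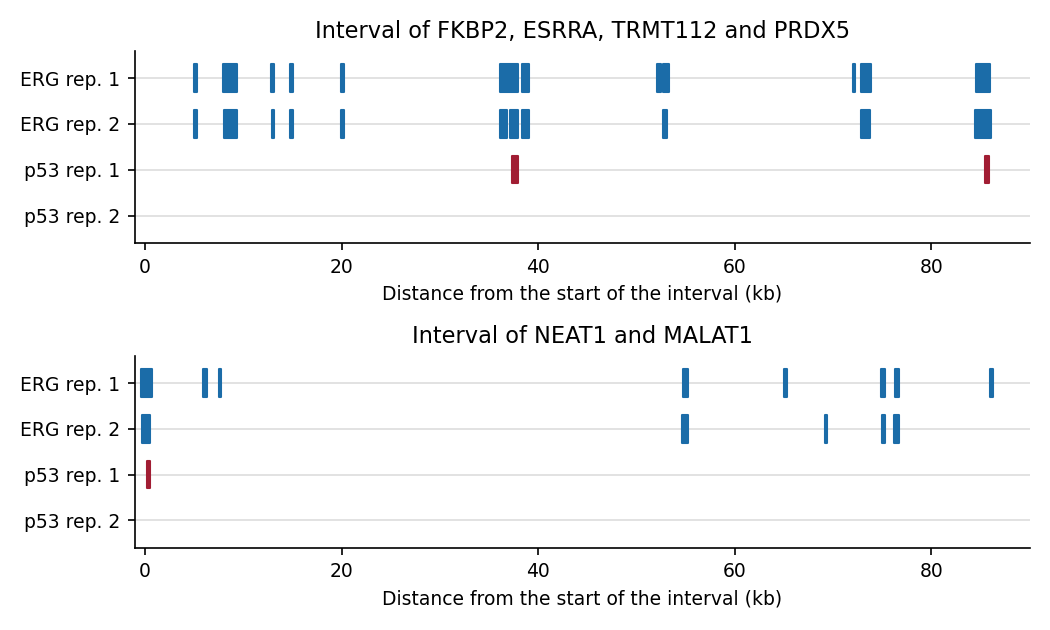
Peaks of the 4 lists along the 2 intervals of 90 kb, as bars drawn to scale against distance from the start of each interval (kb). The upper interval has 12 and 11 ERG peaks and 2 p53 peaks of replicate 1, and the lower one 8 and 5 ERG peaks and 1 p53 peak of replicate 1, at the NEAT1 start.

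All 9 p53 regions of the block met an ERG region of both replicates. As a share this is 100% (70.1% to 100%), against 5 of 15 p53 regions on the rest of chromosome 11 meeting any ERG region (33.3%, 15.2% to 58.3%) and 54.6% over all chromosomes. Counting ERG regions of both replicates alone, the other shares were 26.7% and 40.5%. The block was chosen for dense ERG peaks, and ERG regions covered 13.6 kb per Mb of it against 2.33 kb per Mb on the rest of the chromosome. A higher share of p53 regions that meet ERG is thus partly set by that choice, and how far was not tested. Of the 9, 8 were in p53 replicate 1 alone and 1 was in both p53 replicates, so without replicate 1 a single p53 region is left. Low recurrence of p53 regions was not particular to the block. Over all chromosomes, the p53 lists shared 37 of 328 regions. Those not shared were 190 listed only for replicate 1 and 101 only for replicate 2, which limits every p53 count given here. The block had 9 of the 227 p53 peaks of replicate 1 (3.96%, 2.1% to 7.36%) and 1 of the 138 of replicate 2 (0.725%, 0.128% to 3.99%). Seen from ERG, 9 of the 239 members met p53, or 3.77% (1.99% to 7.0%), against 0.678% on the rest of the chromosome and 1.11% over all. The study speaks of p53 peak sets many times larger than the deposited lists, and it names several thresholds without saying which one made these lists. The 9 regions and their share therefore describe the deposited lists alone.

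The p53 region of both replicates, chr11:65686649-65686931, had peaks of 230 bp and 256 bp and lay 19.50 bp, midpoint to midpoint, from the center of its ERG region. That ERG region, chr11:65686551-65687068 (422 bp and 425 bp), covers the start of DRAP1, a corepressor of general transcription, and meets the promoter of C11orf68. It was thus one of the narrower ERG regions that p53 met. The DRAP1 window printed above has 283 of its 300 bases in the p53 region and holds no CCGGAA.

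The other p53 regions lay 80.50 bp to 593.0 bp from the center of their ERG regions, midpoint to midpoint. At ATL3, an atlastin of the endoplasmic reticulum, p53 replicate 1 had a peak of 217 bp (chr11:63438969-63439185) inside an ERG region of 911 bp and 355 bp. At OTUB1, a deubiquitinase, it had 191 bp (chr11:63753852-63754042) inside an ERG region of 832 bp and 653 bp. At VPS51, a subunit of a vesicle tethering complex, it had 222 bp (chr11:64863505-64863726) inside an ERG region of 703 bp in both replicates. The p53 peak at the NEAT1 start was 294 bp long (chr11:65190234-65190527), with its midpoint 249.5 bp from that of the ERG region.

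At TRMT112 and PRDX5 the p53 peak was 337 bp long (chr11:64085478-64085814) and lay 417.5 bp from the midpoint of the widest ERG region. It took in the whole PRDX5 window printed above, and 165 of the 300 bases of another PRDX5 window (chr11:64317871-64318170, plus strand, GRCh38, 1 CCGGAA). Of the TRMT112 windows, it held 235 of the 300 bases of the upstream one (chr11:64317941-64318240, minus strand, GRCh38, 1 CCGGAA) and none of the printed one with 5 copies. The region at the alternative GPR137 promoter, and not at the main GPR137 start, had a p53 peak of 596 bp (chr11:64037326-64037921). That peak lay inside the 1906 bp ERG peak of replicate 1. The remaining p53 regions extended beyond their ERG regions and are named by position alone. They were chr11:63933283-63934131, of 849 bp against ERG peaks of 692 bp and 848 bp, and chr11:63952479-63952971, of 493 bp against ERG peaks of 1330 bp and 445 bp.

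ERG regions that met p53 were wider than the other shared ERG regions of the block. Taking the narrower of the replicate peaks, the median was 692 bp (355 bp to 1441 bp, 9 regions) against 356 bp (189 bp to 1367 bp, 157 regions). The ranges overlap widely, and a wider region has more room to meet a peak, whose part in the difference was not tested. No p53 region lay in the 6 windows outside the fourth to sixth megabase, including the window starting at 67000001 with its 36 ERG regions.

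Positions relative to genes could be read for 86 members, those within 5 kb of a matched sequence. Of these, 44 covered the start of a gene, 20 lay within 1000 bp of a start without covering it, and 22 had no start within 1000 bp. Because 53 of the 94 matched sequences were themselves within 1000 bp of a start, the 86 are not a sample of the 239, and the share at starts does not carry over to the rest. Regions that covered a start were in both replicates in 41 of 44 cases (93.2%) with a median width of 780 bp. Those near a start were in both in 65.0% with a median of 381 bp, and those with no start within 1000 bp in 63.6% with a median of 366 bp. A wider region covers a start more easily and also recurs more often, so these differences are partly set by the split. Among placed regions of at least the median width of 592 bp, 33 of 33 that covered a start and 9 of 10 that did not were in both replicates. Among narrower ones the numbers were 8 of 11 and 18 of 32. Regions that covered 2 or more starts numbered 11. Of the 7 placed regions that met p53, 6 covered a start, and the 38 regions that covered a start without p53 had a median width of 744 bp.

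**Figure D5:**
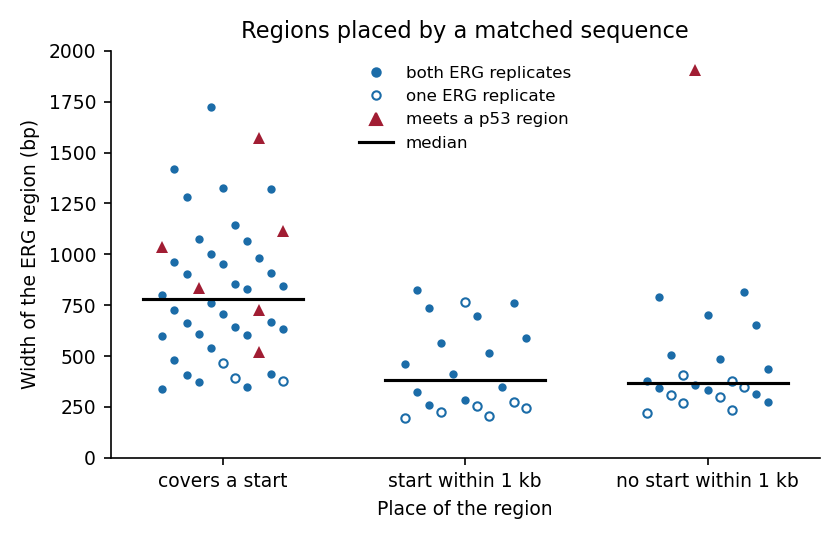
Width (bp) of the 86 placed ERG regions by their place relative to the nearest gene start, with a bar at the median of each class. Medians are 780 bp for regions that cover a start and 381 bp and 366 bp for the others, and 6 of the 7 regions that meet p53 (triangles) cover a start.

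From a list of 35 genes of 11q12 to 11q13, 19 starts could be placed, and an ERG region covered 16 of them and lay within 1000 bp of 18. For each of the 18 starts that region was in both replicates, and TRMT112 and PRDX5 share the same one. Among all placed regions, 41 of the 44 that covered a start were in both replicates. The same held for 13 of the 20 that lay within 1000 bp of a start without covering it. Over all 107 protein-coding and long noncoding genes whose start could be placed, 55 starts were covered (51.4%, 42.0% to 60.7%) and 74 had an ERG region within 1000 bp (69.2%). The list was picked with earlier results known, so its higher counts say nothing about these genes as a group. The remaining 16 genes, among them MEN1, RELA, GSTP1, FADS1 and MALAT1, had no matched sequence within 5 kb of their start and are not analysed here. Among genes of transcription and chromatin, 5 of 6 placed starts were covered. KAT5, a histone acetyltransferase, had peaks of 736 bp and 919 bp at its start. KMT5B, which methylates histone H4, had 1325 bp and 658 bp, and SF1, which recognises the intron branch point in splicing, had 910 bp and 408 bp. KDM2A, a histone demethylase, had no ERG region within 1000 bp of its start.

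All 3 placed signalling genes had a covered start. At PPP1CA, a catalytic subunit of protein phosphatase 1, the peaks were 846 bp and 811 bp long. RPS6KB2 and RPS6KA4, kinases that act on ribosomal protein S6 and on chromatin and transcription factors, had narrow ones, of 336 bp and 375 bp and of 337 bp and 245 bp. In the metabolic group, PRDX5 was covered, and at PC, the pyruvate carboxylase, a region of 261 bp and 212 bp lay 193 bp from the start.

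The actin and trafficking genes were all placed, with 4 of 5 starts covered. CFL1, which severs actin filaments, had the widest peak of them, with 759 bp in replicate 1 and 1632 bp in replicate 2. CORO1B, an actin regulator, had 661 bp and 562 bp, and RAB1B, a GTPase of transport from the endoplasmic reticulum, had 685 bp and 652 bp. PACS1, a sorting adaptor, had 708 bp and 291 bp. EHD1, which recycles membrane proteins, had a region of 514 bp and 374 bp at 50 bp from its start. Peak widths at these starts ranged from narrow to wide in the transcription, signalling, metabolic and trafficking groups. Whether expression of any of these genes depends on ERG was not measured in these samples.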

How the data were processed

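The authors called peaks sample by sample, with MACS2 per the submitters' processing notes, which also name CASAVA 1.4, Bowtie2 2.3.3.1 and hg19. Each deposited list has 4 columns (chromosome, start, end, peak name), the values used being positions with no unit of signal. Samples were grouped by factor and replicate number per the labels. They are biological replicates by the study's account, and separate cultures are not stated in the labels. Lists carry no read counts, and the depth that the study reports for each sample was not used here. The members, gene list and intervals were chosen with earlier results of these data known.

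Peaks overlapping by at least 1 bp were merged per factor and assigned to the block by midpoint. Shares carry 95% Wilson intervals, and no test was run. The length of chromosome 11 was taken from the outermost peaks. Merging and counting were tested on simulated data. Positions are hg19, counted from 1.

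The reference at hand was GRCh38 with GENCODE release 44. The deposited positions are not of that build, since 304 peaks end past the end of their GRCh38 chromosome. Positions were not converted. Gene names were taken through the 94 matched sequences of 25 bases. A region within 5 kb of a match was set beside gene starts by its distance from that match, measured in each build, which assumes the same spacing in both. All 94 matched on the stated strand, and all 5 neighbouring pairs within 5 kb kept their spacing. This limit, the motif and the printed promoters were chosen after values were seen, and they go beyond the plan to assign no gene by position. Python 3.11.15, numpy 2.4.6, scipy 1.17.1 and matplotlib 3.10.9 were used.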

Additional observations from a re-analysis of the deposited data

How the results depend on the processing

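Of 20 other settings, 14 left counts within 1.5 times and other values within their interval or spread, and 6 moved a value further. Of the 14, 4 concern the share of p53 regions that meet ERG, which stood at 100% throughout and rests on 1 region without p53 replicate 1, so they say nothing about stability. The density ratio of the block to the rest of chromosome 11 was 4.52. It was 3.86 over windows that hold a region, 5.37 for regions of both replicates, and 4.68 to 5.21 with 1 ERG replicate left out. The share of regions in both replicates fell from 69.5% to 60.3% when a reciprocal overlap of 50% was asked for, and was 88.1% among regions with a peak at or above the median width. These shares are of the block alone. They cannot be set against the 58.5% of the rest of chromosome 11, which is under the main rule. Median region width was 414 bp for merged regions and 365 bp to 432 bp with 1 ERG replicate left out. The number of members was 196 to 217 peaks in a single list and 216 regions when peaks within 1000 bp were merged. In an alternative chosen after seeing the data, matched sequences within 1000 bp placed 56 regions, of which 33 (58.9%) covered a start, against 51.2% at 5 kb. A stricter peak threshold was not run, since the lists carry no score. No paired analysis was possible because no model with a replicate term is fitted to peak positions. The lists carry no peak height, and depth and input signal were not used to weigh single peaks.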
